A study of Mus musculus with 8 samples.

Results

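Pallial transcription factors, the regulators that pattern the dorsal telencephalon and drive its glutamatergic lineage, were examined in the medial ganglionic eminence (MGE) of WT and Nkx2-1cKO mouse embryos. The 10 genes were Emx1, Emx2, Eomes, Tbr1, Neurog1, Neurog2, Neurod1, Neurod2, Neurod6 and Fezf2, chosen by name from the 17178 gene symbols that the array probes could be matched to. They were covered by 12 probes, with 2 each for Emx2 and Neurod2 and 1 for each of the other 8 genes. All 12 probes were tested.

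Total RNA from microdissected MGE of C57BL/6 embryos at embryonic day (E) 13.5 was hybridised to Agilent 1-colour arrays, for 4 WT and 4 Nkx2-1cKO samples. The WT samples are labelled Nkx2-1flox/+;Olig2tva-cre- and the Nkx2-1cKO samples Nkx2-1flox/+;Olig2tva-cre+, so both groups carry a floxed Nkx2-1 allele and differ in their labels by the Cre, which is driven by Olig2 regulatory sequence. The study's methods name an Nkx2-1f/f strain, and whether the mutant samples were flox/+ or f/f is not settled by the sources used here. The driver limits deletion to cells that have used Olig2 and their descendants. How many embryos went into a sample is not given in the sources used here, so that p-values measure the spread between these samples, which may be technical in part. Signals are given as log2 relative to the 75th percentile of their array, and are compared only within a probe.

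As a check of the deletion, Nkx2-1 averaged 1.87 ± 0.06 over the WT arrays and -4.46 ± 0.19 over the mutant arrays (SD, n = 4 each), with 1.24% of the WT level left. So low a level is hard to reconcile with the intact allele that the mutant labels give. Among 31283 tested probes, 324 differed between the groups at an adjusted p under 0.05 (limma), which is 1.04% of them. Of 8 arrays, 4 lay on each of 2 slides, and each slide held 2 WT and 2 Nkx2-1cKO samples. WT replicate 1 stood apart for dim probes, with a median deviation of 1.18 from the median of the other arrays in the dimmest of 5 equal classes of tested probes, 0.37 in the class above it and between -0.04 and 0.08 in the 3 brightest. Where a member was highest on this array, its difference is also given without it.

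In the embryonic telencephalon the pallium, or dorsal part, gives rise to the glutamatergic neurons of the cortex, while the subpallium, to which the MGE belongs, makes GABAergic and cholinergic neurons. Dorsal progenitors are patterned by the homeobox genes Emx1 and Emx2. The proneural basic helix-loop-helix (bHLH) factors Neurog1 and Neurog2 start neurogenesis there, in a cascade that passes through Eomes (also called Tbr2) in intermediate progenitors and Neurod1, and ends with Tbr1, Neurod2 and Neurod6 in postmitotic projection neurons. Fezf2, a zinc finger factor, acts in dorsal progenitors and in deep layer neurons that project below the cortex. In the subpallium, homeobox genes of the Gsx and Dlx families hold the corresponding place.

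The bHLH factors of this cascade bind a short motif, the E-box. The upstream sequence of the 3 Neurod members is shown because these close relatives followed different patterns across the arrays, described further on. Each is the 250 bases before the start of the gene, 5′ to 3′, from RefSeq on GRCm38.p6, with E-boxes (CANNTG, the same on both strands) in capitals.
Neurod1, chr2:79456637-79456886 (minus strand): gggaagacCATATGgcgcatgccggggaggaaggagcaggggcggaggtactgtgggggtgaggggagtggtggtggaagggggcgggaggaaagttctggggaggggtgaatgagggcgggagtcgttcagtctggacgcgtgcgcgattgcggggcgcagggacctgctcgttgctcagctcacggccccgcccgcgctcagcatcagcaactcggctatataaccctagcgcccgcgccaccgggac
Neurod2, chr11:98329646-98329895 (minus strand): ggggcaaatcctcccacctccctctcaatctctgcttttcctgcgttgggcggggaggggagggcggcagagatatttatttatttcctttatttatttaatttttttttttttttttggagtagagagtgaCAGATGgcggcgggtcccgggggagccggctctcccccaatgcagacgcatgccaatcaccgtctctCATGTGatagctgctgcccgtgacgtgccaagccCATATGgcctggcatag
Neurod6, chr6:55681264-55681513 (minus strand): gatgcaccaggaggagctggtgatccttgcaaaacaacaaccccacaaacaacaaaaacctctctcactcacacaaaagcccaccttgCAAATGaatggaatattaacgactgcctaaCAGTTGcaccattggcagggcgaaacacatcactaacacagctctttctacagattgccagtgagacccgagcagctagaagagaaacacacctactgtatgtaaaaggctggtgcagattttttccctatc
The window of Neurod1 holds 1 E-box, that of Neurod2 holds 3 and that of Neurod6 holds 2. Of the 3 in Neurod2, 1 has the form CATCTG or CAGATG, which NEUROG and NEUROD proteins are known to bind and which is itself an E-box. Of the 10 members, 5 had an E-box in this window, against 66.2% of all 32851 promoter windows of the same length. CATCTG or CAGATG was found in 1 of the 10 members, against 14.4% of all windows. CAAGTG or CACTTG, the core that NK2 homeodomain proteins such as NKX2-1 bind (also an E-box by its letters), was found in 0 of the 10 and in 11.6% of all windows. The sequences alone do not tell whether any protein binds there. A link between the sequences and the patterns across the arrays was not tested.

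All 10 pallial factors were well above background on all 8 arrays, and none of them changed past the threshold in the Nkx2-1cKO. The 4 Nkx2-1cKO arrays overlapped the 4 WT arrays for each of the 12 probes, while 6.46% of all tested probes had groups that did not overlap. At an adjusted p under 0.05 (limma) 0 of the 10 genes were called, beside 1.04% of all probes, and at an unadjusted p under 0.05 also 0, beside 8.62% of all probes. The lowest adjusted p of a member was 0.638, for Eomes (limma). The median log2 difference of the 10 genes, by the brightest probe of each, was -0.09, close to the -0.04 of all tested probes. The mean was lower in the Nkx2-1cKO for 8 of the 10 and higher for 2, Tbr1 and Neurod2, beside 57.5% of all tested probes with a lower mean, and for all but Eomes, Neurog2 and Neurod1 the sign turned in at least 1 other way of processing or with an array left out. In bulk RNA, fewer cells of a type and less RNA per cell cannot be told apart.

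**Figure D1:**
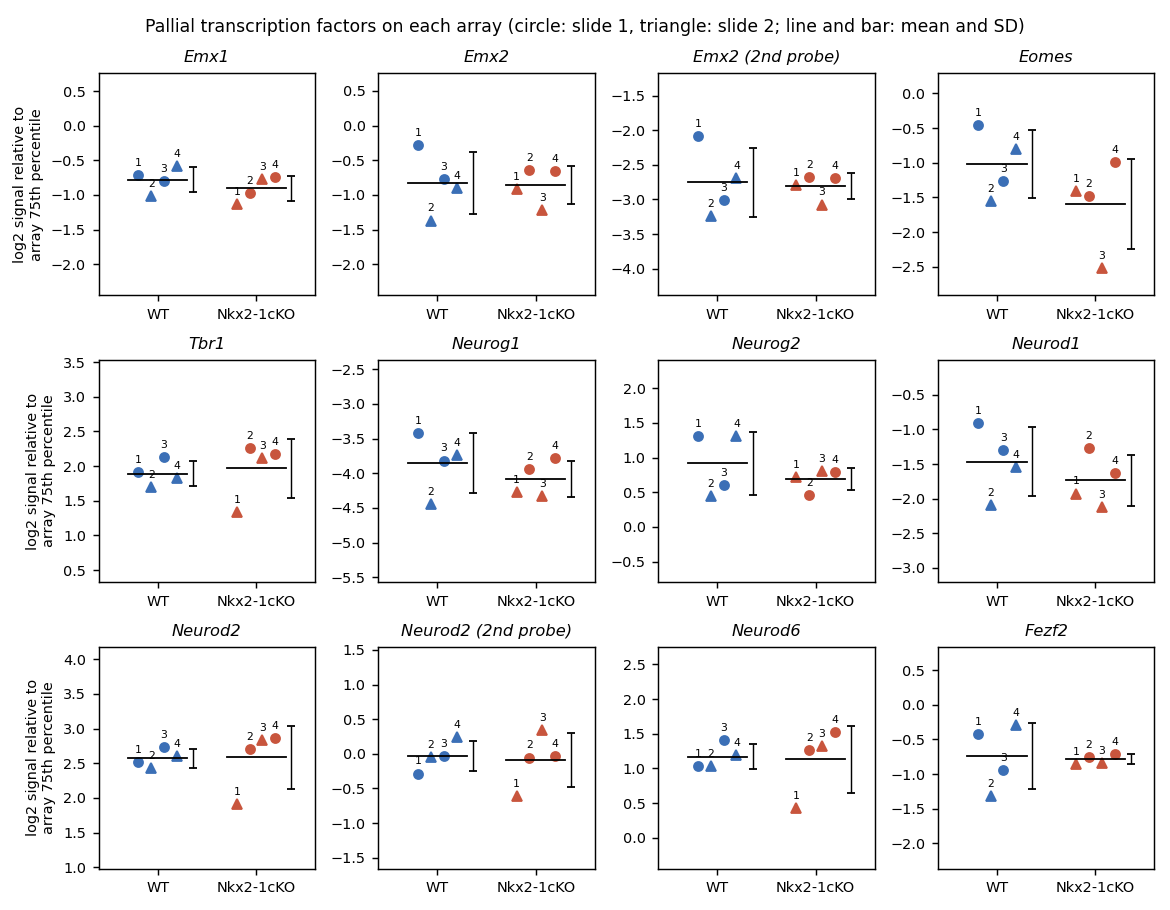
Log2 signal relative to the array's 75th percentile (vertical axis) of each of the 12 probes in the 4 WT and 4 Nkx2-1cKO samples, numbered by replicate, with circles for slide 1 and triangles for slide 2, and lines and bars for the mean and SD. Each panel spans the same range of log2 units around its own mean, and in all panels the points of both groups overlap.

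Emx1, which marks dorsal progenitors and their descendants, read -0.72, -1.02, -0.80 and -0.58 in WT replicates 1 to 4 and -1.14, -0.97, -0.77 and -0.74 in the Nkx2-1cKO. Replicate 1 of the Nkx2-1cKO lay below the lowest WT sample, and the other 3 were within the WT range. The log2 difference was -0.13 (standard error 0.13, 95% interval -0.41 to 0.16, adjusted p = 0.745, limma), the narrowest interval among the members.

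Emx2, the related homeobox gene of dorsal and caudal progenitors, read -0.28, -1.37, -0.78 and -0.90 in WT and -0.92, -0.64, -1.22 and -0.66 in the Nkx2-1cKO on its brighter probe. The WT samples spanned the whole range and held all the Nkx2-1cKO samples within it. The difference was -0.03 (standard error 0.22, 95% interval -0.52 to 0.46, adjusted p = 0.971, limma), and -0.05 on the dimmer probe (standard error 0.23, adjusted p = 0.948, limma). The dimmer probe likewise had its highest value, -2.09, in WT replicate 1 and its lowest, -3.23, in WT replicate 2. The sign for Emx2 changed with the processing, to 0.09 when the arrays were centred on their median and to 0.15 without WT replicate 1, while it was -0.21 without WT replicate 2.

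Neurog1, a proneural factor that acts beside Neurog2, read -3.42, -4.44, -3.82 and -3.73 in WT and -4.28, -3.95, -4.33 and -3.78 in the Nkx2-1cKO, all of them well above background. The Nkx2-1cKO samples lay within the WT range. The difference was -0.23 (standard error 0.23, 95% interval -0.75 to 0.29, adjusted p = 0.740, limma). It was -0.09 without WT replicate 1, -0.43 without WT replicate 2, and turned to 0.43 after normexp background correction, which moved the median of all probes by 0.24.

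Neurog2, the proneural factor that drives the glutamatergic programme, read 1.31, 0.45, 0.61 and 1.31 in WT and 0.72, 0.46, 0.81 and 0.79 in the Nkx2-1cKO. WT replicates 1 and 4 were above all other samples, and the remaining WT samples lay at the low end. The difference of -0.23 (standard error 0.20, 95% interval -0.68 to 0.23, adjusted p = 0.718, limma) corresponds to 85.5% of the WT level, with an interval from 0.62 to 1.17 of WT. Without single arrays the estimate for Neurog2 ran from -0.38 (without WT replicate 2) to -0.09 (without WT replicate 4). For both Neurog genes the difference was within the spread between samples.

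Eomes, the T-box factor of intermediate progenitors, had the largest difference of the 10. It read -0.46, -1.55, -1.26 and -0.79 in WT and -1.40, -1.48, -2.51 and -0.995 in the Nkx2-1cKO. Replicate 3 of the Nkx2-1cKO was far below the rest, and the other 3 lay within the WT range. The difference was -0.58 (standard error 0.33, 95% interval -1.32 to 0.15, adjusted p = 0.638, limma), or 66.8% of the WT level, and an exact two-sided permutation test gave p = 0.2, where 4 arrays against 4 allow 0.0286 at the least. Its direction was the same in all 19 alternatives, between -0.78 and -0.28, with adjusted p from 0.394 to 0.949 (limma). The value nearest to 0 came without Nkx2-1cKO replicate 3, without WT replicate 1 it was -0.40, and without WT replicate 2 it was -0.76. Its interval was the only one of the 10 to include a fall of 1 on the log2 scale, and none included a rise of 1.

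Neurod1, a bHLH factor that follows the Neurog genes, read -0.91, -2.09, -1.30 and -1.55 in WT and -1.93, -1.27, -2.12 and -1.64 in the Nkx2-1cKO. Both groups covered much the same range. The difference was -0.27 (standard error 0.26, 95% interval -0.85 to 0.30, adjusted p = 0.726, limma). It was -0.09 without WT replicate 1 and -0.48 without WT replicate 2, the samples at the ends of the WT range.

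Tbr1, a T-box factor of early-born projection neurons, read 1.91, 1.69, 2.13 and 1.83 in WT and 1.33, 2.26, 2.11 and 2.17 in the Nkx2-1cKO. Replicate 1 of the Nkx2-1cKO lay below all WT samples and replicates 2 and 4 above all of them. The difference was 0.08 (standard error 0.19, 95% interval -0.36 to 0.52, adjusted p = 0.899, limma).

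Neurod2, a bHLH factor of maturing cortical neurons, read 2.51, 2.43, 2.74 and 2.60 in WT on its brighter probe and 1.92, 2.71, 2.84 and 2.87 in the Nkx2-1cKO. Here too replicate 1 of the Nkx2-1cKO was lowest and 2 Nkx2-1cKO samples were above all WT samples. The difference was 0.01 (standard error 0.20, 95% interval -0.42 to 0.45, adjusted p = 0.986, limma), and -0.06 on the dimmer probe (standard error 0.19, adjusted p = 0.929, limma), which read -0.61 in the same low sample and between -0.05 and 0.34 in the other Nkx2-1cKO samples.

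Neurod6, a close relative of Neurod2 in the same neurons, read 1.03, 1.04, 1.41 and 1.19 in WT and 0.43, 1.27, 1.32 and 1.53 in the Nkx2-1cKO. The lowest sample was again Nkx2-1cKO replicate 1 and the highest Nkx2-1cKO replicate 4. The difference was -0.03 (standard error 0.21, 95% interval -0.51 to 0.44, adjusted p = 0.965, limma). Without Nkx2-1cKO replicate 1 the differences became 0.29 for Tbr1, 0.24 for Neurod2 and 0.20 for Neurod6, with adjusted p of 0.589, 0.632 and 0.744 (limma), so none of the 3 was called either way.

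Fezf2 read -0.42, -1.32, -0.94 and -0.30 in WT and -0.86, -0.75, -0.84 and -0.71 in the Nkx2-1cKO. The Nkx2-1cKO samples sat close together, with an SD of 0.07 (n = 4), in the middle of WT samples with an SD of 0.47 (n = 4). The difference was -0.05 (standard error 0.20, 95% interval -0.50 to 0.41, adjusted p = 0.948, limma), and its sign changed with the processing.

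**Figure D2:**
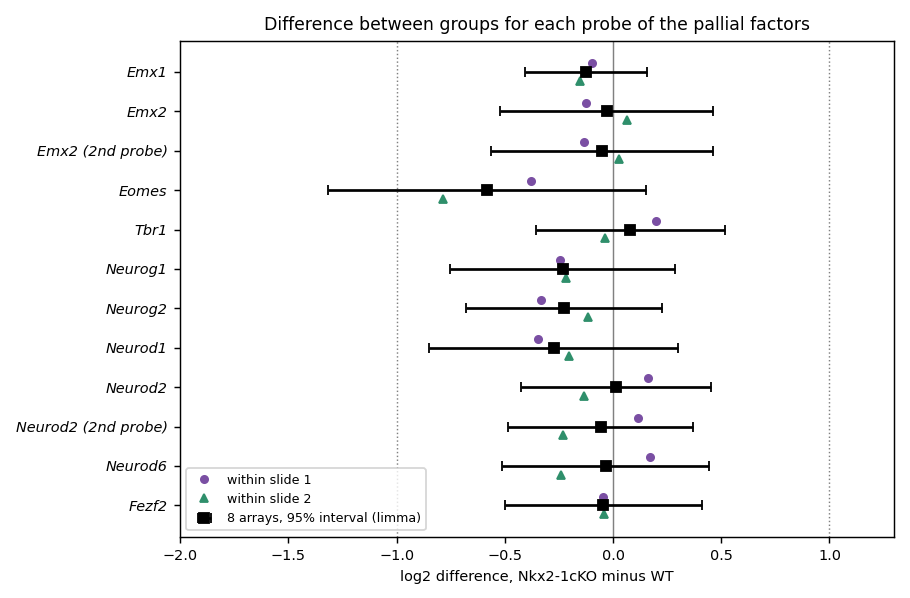
Log2 difference between Nkx2-1cKO and WT (horizontal axis) for each of the 12 probes, with the 95% interval from limma over 8 arrays as bars, and the differences within slide 1 (circles) and slide 2 (triangles). All 12 intervals include 0, and only the interval of Eomes, from -1.32 to 0.15, reaches the dotted line at -1.

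The precision of these comparisons was below that of a typical probe. The pooled SD within groups was larger than the median of all tested probes, 0.22, for 9 of the 10 genes, with a median of 0.35 over the members. It was smallest for Emx1, at 0.18, and largest for Eomes, at 0.57, larger than for 85.4% of the tested probes. The intervals of the members were 0.93 wide on the log2 scale at the median. With 4 arrays in each group, differences inside those intervals were not excluded. The intervals are not limits of detection, since calls were made on p-values adjusted over all tested probes.

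The members did not vary together as 1 block across the arrays. The factors of postmitotic neurons, Tbr1, Neurod2 and Neurod6, all had their lowest value in Nkx2-1cKO replicate 1, where the brighter Neurod2 probe deviated by -0.66 from the mean of the 8 arrays, Tbr1 by -0.60 and Neurod6 by -0.72. In the same array, 12.3% of all tested probes had their lowest value. Emx1 was also lowest there, by -0.29. The other members had their extremes elsewhere. Emx2, Eomes, Neurog1 and Neurod1 were all highest in WT replicate 1, by 0.56, 0.85, 0.55 and 0.69. In that array 37% of all tested probes were highest. For the brightness class of Emx2, Eomes and Neurod1 that array's median deviation was 0.08, and for that of Neurog1 it was 0.37. The part of that shift in the values of these genes was not tested. Emx1, Neurog2 and Fezf2 were highest in WT replicate 4, and Emx2, Neurog1, Neurog2 and Fezf2 were lowest in WT replicate 2. For each of the 10 genes the WT samples alone spanned more than the difference between the group means.

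**Figure D3:**
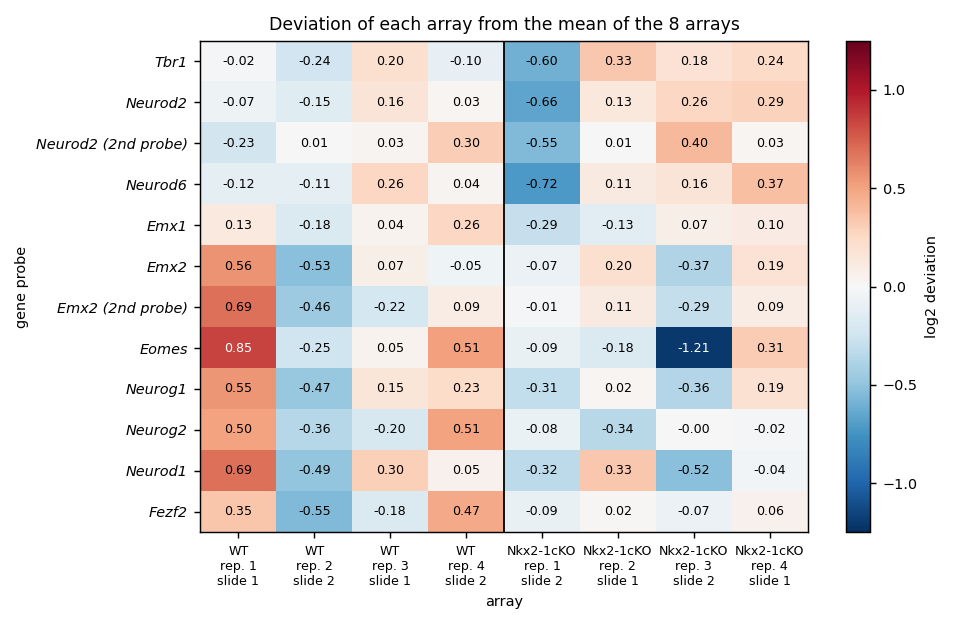
Deviation in log2 units (colour and number) of each array (columns, with replicate and slide) from the mean of the 8 arrays for each of the 12 probes (rows), with the postmitotic factors Tbr1, Neurod2 and Neurod6 at the top. The 4 probes of these genes are lowest in Nkx2-1cKO replicate 1, from -0.72 for Neurod6 to -0.55 for the dimmer Neurod2 probe, and Eomes has the extremes, 0.85 in WT replicate 1 and -1.21 in Nkx2-1cKO replicate 3.

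Some members also differed between the slides. With genotype in the same fit, slide 1 was above slide 2 by 0.64 for Neurod1 (standard error 0.15, adjusted p = 0.0256, limma) and by 0.51 for the brighter probe of Emx2 (standard error 0.14, adjusted p = 0.0479, limma). The other 8 members were not called between slides, and 14.3% of all tested probes were. Within slides, the difference between Nkx2-1cKO and WT for Neurod1 was -0.35 on slide 1 and -0.20 on slide 2, and for Emx2 -0.12 and 0.07. For Eomes it was -0.38 and -0.78. Tbr1, Neurod2 and Neurod6 were higher in the Nkx2-1cKO on slide 1, by 0.20, 0.16 and 0.17, and lower on slide 2, by -0.04, -0.14 and -0.24, and slide 2 is the one that held Nkx2-1cKO replicate 1. With slide as a block none of the 10 genes passed the threshold.

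In 3 further lists of pallial and proneural genes 0 were called, beside 1.04% of all tested probes. At an unadjusted p under 0.05 (limma) the share over all tested probes was 8.62%. Of 10 further factors of pallial progenitors (among them Pax6, Lhx2 and the Dmrt genes), 0 passed the threshold, with 2 at an unadjusted p under 0.05 and a median log2 difference of 0.02. Pax6, which is strong in dorsal progenitors, averaged -0.40 ± 0.16 over WT and -0.25 ± 0.05 over mutant arrays (SD, n = 4 each), a difference of 0.15 (adjusted p = 0.656, limma) that turned to -0.14 with the mean of its probes. The largest difference in that list, 0.42 for Gli3, a zinc finger factor of dorsal patterning, was not called (adjusted p = 0.591, limma). Of 12 genes of the proneural cascade outside the members, such as Dll1, Hes6 and Insm1, 0 passed, with 3 at an unadjusted p under 0.05 and a median of 0.01. The largest difference there was -0.55 for Neurod4 (adjusted p = 0.67, limma), a dim gene that turned to 0.57 after normexp. Of 8 tested genes of Cajal-Retzius cells and the cortical hem (Lmx1a, Wnt3a and Wnt2b were too dim to test), 0 passed, also at an unadjusted p under 0.05, with a median of 0.12, and Wnt8b, with -0.77 (adjusted p = 0.767, limma), turned to 0.59 after normexp.

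Of 15 genes of glutamatergic cortical neurons, 1 passed the threshold and 3 had an unadjusted p under 0.05, with a median of -0.16. This was Nr4a2, a nuclear receptor, whose WT mean of 1.04 ± 0.17 fell by 1.06 to reach -0.015 ± 0.24 in the mutant (SD, n = 4 each, with a standard error of 0.13 and an adjusted p = 0.0047, limma). Nr4a2 is also used by neurons outside the cortex. Among these 15 genes, 10 had their lowest value in Nkx2-1cKO replicate 1, the array in which Tbr1, Neurod2 and Neurod6 were lowest, and the list's median deviation there was -0.56, against -0.10 to 0.20 in the other arrays. Its part in the values of the pallial factors was not tested.

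Of 11 subpallial counterpart genes, 1, not named here, was called lower and 0 higher. At an unadjusted p under 0.05 (limma) there were 7, beside 8.62% of all tested probes, and the median log2 difference was -0.0002. The homeobox genes Dlx1, Dlx2 and Gsx2, which act in GABAergic progenitors, were well above background on all 8 arrays. None of these 3 passed the threshold. Dlx1 had a difference of -0.39 (adjusted p = 0.0783, limma) and Dlx2 of -0.29 (adjusted p = 0.308, limma). The groups did not overlap for either gene, with the mutant samples lower, and 6.46% of all tested probes had groups that did not overlap. Gsx2, with 0.42 (adjusted p = 0.412, limma), had a higher mean in the Nkx2-1cKO with overlapping groups.

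Genes of the lateral ganglionic eminence (LGE), the subpallial neighbour of the MGE, were called often on the same arrays. Of 11 such genes 8 rose past the threshold and 0 fell, with a median of 0.98, where 0.422% of all probes were called higher. The largest rises were 1.51 for the retinoic acid receptor gene Rarb (standard error 0.21, adjusted p = 0.0075, limma), 1.39 for Zfp503 (standard error 0.12, adjusted p = 0.000344, limma) and 1.37 for Ebf1 (standard error 0.19, adjusted p = 0.00675, limma). Since the list was drawn up with earlier results of these data known, it is no independent evidence.

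**Figure D4:**
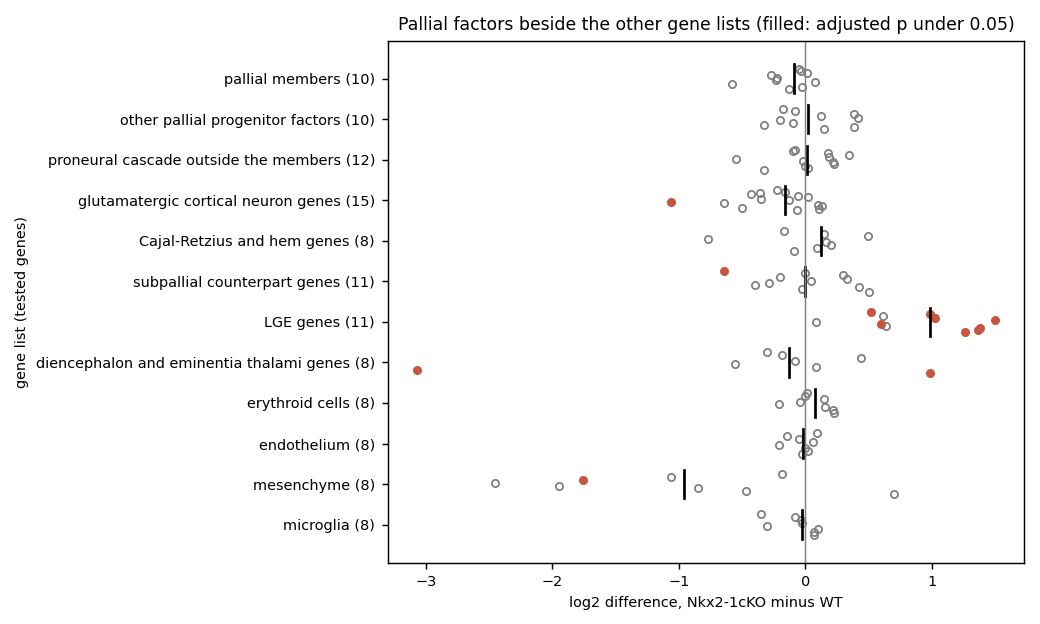
Log2 difference between Nkx2-1cKO and WT (horizontal axis) of each tested gene, by its brightest probe, in the pallial factors and 11 other lists, with the number of tested genes in brackets, filled points for genes past an adjusted p of 0.05 and a bar at the median. None of the 10 pallial factors is filled, with a median of -0.09, beside 8 of 11 LGE genes with a median of 0.98.

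Markers of other tissue that a dissection could include were also read. Of 8 tested genes of the diencephalon and eminentia thalami (Irx3 and Otp were too dim to test), 1 rose, Tcf7l2 by 0.99 (adjusted p = 0.00153, limma), and 1, Gbx2, fell by 3.07 (adjusted p = 5.23e-06, limma), which MGE cells also express, with a median of -0.13. None of 8 tested erythroid genes passed (Ahsp was not matched), with a summed level between 86.9 and 129 times the array's 75th percentile in WT and between 92.4 and 140 in the Nkx2-1cKO. The largest erythroid difference was 0.23 for Hbb-y (adjusted p = 0.654, limma). None of 8 endothelial genes passed, with summed levels of 8.41 to 11.4 in WT and 8.87 to 10.9 in the Nkx2-1cKO, and the largest difference was -0.20 for Tek (adjusted p = 0.686, limma), which turned to 0.03 after normexp. None of 8 microglial genes passed, with 2.17 to 2.33 in WT and 2.19 to 2.39 in the Nkx2-1cKO. The largest difference was -0.35 for Spi1 (adjusted p = 0.654, limma), which turned to 0.61 after normexp and to 0.11 after quantile normalization. The groups did not overlap for Spi1, as for 6.46% of all tested probes. Of 8 mesenchymal genes 1 was called, Pdgfra, which fell by 1.76 (adjusted p = 4.9e-05, limma), a receptor that oligodendrocyte precursors also carry, and the median of the list was -0.96. Dcn and Lum, named here after their values were seen, had larger differences that were not called, -2.45 and -1.95 (adjusted p = 0.526 and 0.697, limma). Col1a1, in the same list, went the other way, with 0.70 (adjusted p = 0.771, limma). Foxc1 differed by only -0.18 (adjusted p = 0.729, limma). Summed over the 8 genes, the level was 1.26 to 7.51 in WT and 1.04 to 1.65 in the mutants. The list's median deviation was 1.97 in WT replicate 4, the array in which Emx1, Neurog2 and Fezf2 were highest. Its part in those values was not tested, and without that array the differences were -0.06 for Emx1, -0.09 for Neurog2 and 0.10 for Fezf2.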

How the data were processed

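RNA had been labelled with Cy3 and hybridised with 1 sample per array. The authors deposited Agilent Feature Extraction output (version 10.1 in the submitters' processing notes, 10.7.3.1 in the file headers), whose intensity is corrected for background within the array and not scaled between arrays. The deposited flags mark spots well above background. No spot was saturated.

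Control and outlier spots were left out, log2 intensity was set relative to each array's 75th percentile, and spots of a probe were averaged. Accessions were matched to RefSeq symbols (GRCm38.p6), for 24844 of 41174 probes. A probe was tested if at least 4 of the 8 arrays had it well above background (31283, with 53 missing values) with limma 3.58.1 in R 4.3.3 (lmFit, eBayes with a variance trend, Benjamini-Hochberg over all tested probes, threshold 0.05). A gene was represented by its brightest tested probe. Outside the members, the rule named up to 3 called genes in each direction per list, otherwise the gene with the largest difference, and also Nkx2-1, Pax6, Gsx2, Dlx1 and Dlx2. Some genes that the rule names are not reported here. The fit was tested on simulated data. Members and lists were chosen with earlier results of these data known. The number of arrays limits the precision. Normexp used the median signal with an offset of 50. The other alternatives are named in the closing section.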

Additional observations from a re-analysis of the deposited data

Results flagged for a closer look

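In 4 of 64 groups of 4 arrays a single sample lay far outside its group, and about 1 group in 20, here 3.2, would do so by chance. Nkx2-1cKO replicate 1 read 1.33 for Tbr1, where the other Nkx2-1cKO samples read 2.11 to 2.26. The same sample read 1.92 for the brighter probe of Neurod2, where the others read 2.71 to 2.87. WT replicate 4 read -0.17 for Pax6, against -0.50 to -0.46 in the other WT samples. WT replicate 3 read 0.79 for Nr4a2, against 1.11 to 1.15. All 4 values, from 3 arrays, were well above background.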

How the results depend on the processing

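None of the 10 pallial factors passed the threshold in any of the 19 alternatives that were run, in 190 recomputed differences, and the lowest adjusted p was 0.394 (limma). The direction was the same in 165 of the 190. With normexp the difference turned to 0.00060 for Emx1, 0.090 for Emx2, -0.011 for Tbr1, 0.43 for Neurog1, -0.057 for Neurod2 and 0.025 for Fezf2. Centring on the median gave 0.092 for Emx2, 0.086 for Neurod6 and 0.074 for Fezf2, array weights 0.20 for Emx2 and 0.11 for Fezf2, quantile normalization -0.027 for Neurod2 and the mean of probes -0.022 for Neurod2. Normexp moved the median of all tested probes by 0.24 and centring on the median by 0.12. Centring moved the difference of each member by that same 0.12, so its changes of sign are this offset. With 1 array left out in turn the range was -0.20 to -0.05 for Emx1, -0.21 to 0.15 for Emx2, -0.018 to 0.29 for Tbr1, -0.082 to 0.24 for Neurod2, -0.78 to -0.28 for Eomes, -0.43 to -0.09 for Neurog1, -0.38 to -0.09 for Neurog2, -0.48 to -0.09 for Neurod1, -0.17 to 0.20 for Neurod6 and -0.24 to 0.10 for Fezf2. The cause of the other changes of sign was not tested.

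Outside the members, Pax6 turned to -0.14 with the mean of probes, and normexp turned Neurod4 to 0.57, Wnt8b to 0.59, Tek to 0.032 and Spi1 to 0.61. Spi1 turned to 0.11 with quantile normalization and Wnt8b lay between -1.22 and 0.011 with 1 array left out. Over all probes, 132 were higher and 192 lower. The number of higher probes was 87 without a variance trend, 63 with normexp and 209 with slide as a block, and the number of lower probes was 291 with array weights, 115 with centring on the median and 90 with normexp. With 1 array left out, between 65 (without Nkx2-1cKO replicate 1) and 118 were higher and between 130 and 174 lower. Arrays of equal replicate number did not deviate together (correlations of -0.481 to -0.194). The arrays of each such pair lay on different slides, and slide was left in these deviations. The correlations therefore cannot show whether the numbers pair the samples. A fit with the replicate block had 8 calls higher, 64 lower and 0 among the members. Under it the calls of Nr4a2, Rarb and Ebf1 were lost, with adjusted p of 0.096, 0.0963 and 0.102 (limma). Pdgfra lost its call with normexp (adjusted p = 0.538, limma), and Dlx1 passed with array weights, quantile normalization, slide as a block and without Nkx2-1cKO replicate 1 (adjusted p from 0.0181 to 0.0358, limma). All 12 probes of the members were well above background on all 8 arrays, while low signal over background limits Neurod4 and Wnt8b. Among the members, the estimate for Neurog1 still depended on the background correction. It went from -0.23 (standard error 0.23) to 0.43 (standard error 0.53) with normexp.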
